A study of Mus musculus with 27 samples.

Results

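The genes described are 7 parts of the lipoprotein lipase system and the hepatic machinery around it, followed in mouse liver over a reproductive cycle. They were chosen by name from the list Lpl, Lipc, Lmf1, Angptl4, Angptl8, Vldlr and Mttp, and each was matched to its Ensembl gene in the tables. All 7 were found among 51826 genes, and all 7 passed the filter on low counts, which left 16428 genes.

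Lipoprotein lipase, encoded by Lpl, cuts triglyceride from chylomicrons and very low density lipoprotein (VLDL) on the wall of capillaries, so that fatty acids enter the tissue beneath. It is made mainly in adipose tissue, muscle and the lactating mammary gland, and is known to be low in adult liver, where hepatic lipase (Lipc) takes its place. Both enzymes fold in the endoplasmic reticulum with the help of lipase maturation factor (Lmf1). The secreted angiopoietin-like proteins Angptl4 and Angptl8 inhibit lipoprotein lipase, Angptl4 being induced in fasting and Angptl8 in feeding. Vldlr is a receptor for triglyceride-rich lipoproteins, and Mttp, the microsomal triglyceride transfer protein, loads lipid onto apolipoprotein B when VLDL is built.

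RNA was sequenced in bulk from the whole livers of 27 wild-type BALB/C mice, an inbred strain, with 1 library per animal. The groups were nulliparous mice that were not pregnant (NUL, n = 4), mice at lactation day 10 (LAC, n = 3), mice 2, 4, 6 and 8 days after the pups were weaned, called involution days (ID2, n = 3; ID4, n = 4; ID6, n = 6; ID8, n = 3), and mice 4 weeks after weaning, called regressed (REG, n = 4). Per the design text, animals were matched for age, breeding took place at 10 to 12 weeks, litters were made equal in size, and weaning fell at 10 to 14 days of lactation. The livers were frozen and pulverised whole, so a level is that of a mixture of cells, and fewer cells of a type and less RNA per cell cannot be told apart. Library totals ran from 41120650 to 75664540 expected counts. The animals carry numbers in their labels: 7 have a number under 200, namely 2 of 3 in ID2, 2 of 4 in ID4 and all 3 in ID8. The labels do not say what the numbers stand for. Of 10 hepatocyte markers all were detected in every stage, with summed levels between 97800 and 237000 CPM (reads of a gene scaled to library size, here with TMM factors). Of 8 milk and mammary gland markers all stayed at 0 in the 3 LAC livers, so none of this RNA was detected in the LAC libraries. RNA of another tissue was seen in the library titled ID2_31. There 10 pancreas acinar markers summed to 1730 CPM, beside 9.85 to 138 CPM in all other libraries. Of the 8 milk and mammary gland markers, Glycam1 was present in ID2_31 at 4.63 CPM, and the other 7 were at 0 in all ID2 libraries.

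Over all 7 stages jointly, 3 of the 7 genes changed, namely Lpl, Lipc and Mttp, where 27% of all tested genes did (edgeR's quasi-likelihood test with Benjamini-Hochberg adjustment over 16428 genes, adjusted p under 0.05). The edgeR adjusted p was 1.05e-05 for Lpl, 3.33e-05 for Mttp and 9.55e-05 for Lipc. Angptl4 had an adjusted p of 0.0833 in this edgeR test, Angptl8 0.366, Lmf1 0.45 and Vldlr 0.898. The genes that moved were both lipases and the VLDL assembly factor, while the maturation factor, the receptor and both inhibitors did not pass the threshold.

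**Figure D1:**
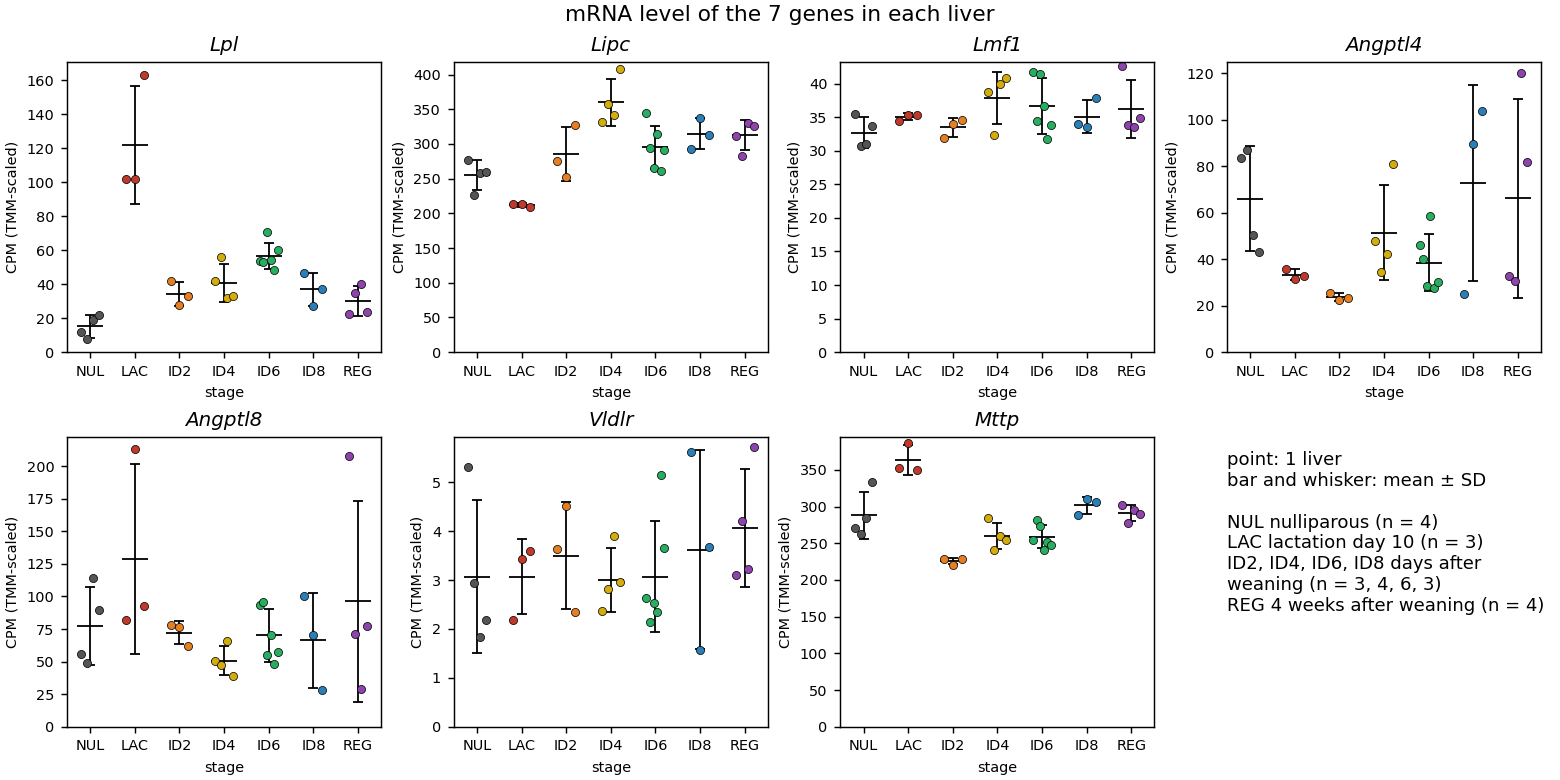
Level of each of the 7 genes in each liver, in TMM-scaled CPM on axes that start at 0, by stage; each point is 1 animal, and the bar and whiskers are the mean ± SD. Lpl stood at 102 CPM or more in the 3 LAC livers and at 70.5 CPM or less in all others, while Angptl4 and Angptl8 spread widely within ID8 and REG.

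Counted by comparison, LAC against NUL called 2 of the 7 genes, Lpl and Mttp, both higher, beside 11.2% of all tested genes. ID2 against NUL called Lpl higher and Mttp lower (2 of 7, 3.24% of all genes), ID4 against NUL called Lpl and Lipc higher (2 of 7, 4.25%), and ID6 against NUL called Lpl higher (1 of 7, 1.08%). In ID8 and in REG against NUL edgeR called 0 of 7, beside 0.499% and 0.0852% of all genes. At an unadjusted p under 0.05 those counts were 2 and 2, and DESeq2 called 1 (Lpl) and 0, while limma on log2(TPM + 1) called 0 and 0. These 6 comparisons share the same 4 NUL livers.

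Against LAC, each of the 5 later stages called the same 3 of 7 genes: Lpl lower, Mttp lower and Lipc higher. Among all genes 16.1% were called for ID2, 22.4% for ID4, 16.4% for ID6, 12.8% for ID8 and 11.7% for REG. These comparisons share the 3 LAC livers. Between neighbouring stages after weaning, ID6 against ID4 called 1 of 7 (Lipc, lower, beside 8.53% of all genes). The edgeR counts were 0 of 7 in ID4 against ID2 (1.49% of all genes), in ID8 against ID6 (4.12%) and in REG against ID8 (0.0487%). At an unadjusted p under 0.05 these counts were 3, 3 and 0, and DESeq2 called 1 (Lipc), 1 (Mttp) and 0, while limma on log2(TPM + 1) called 0 in each. Mttp alone was called, higher, in ID8 against ID2 (1 of 7, 0.548%) and in REG against ID2 (1 of 7, 2.56%).

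**Figure D2:**
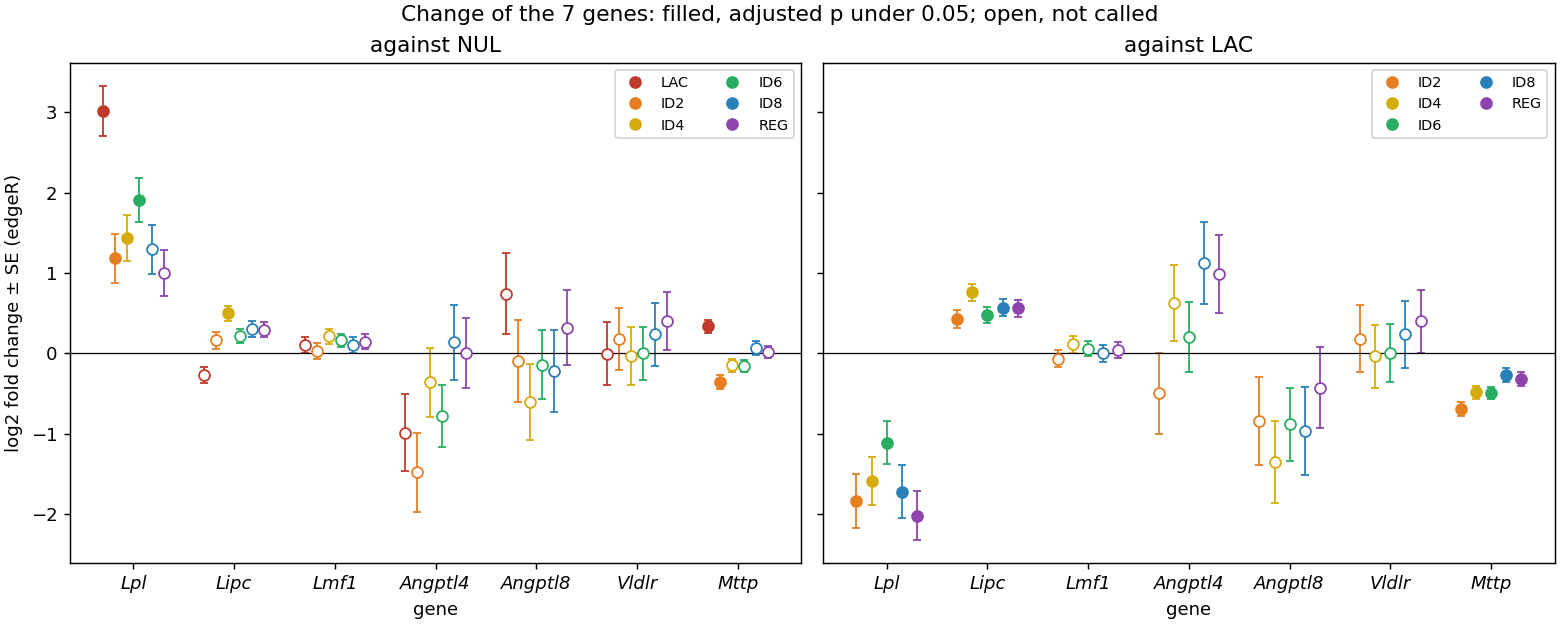
Log2 fold change ± SE of the 7 genes from the edgeR fit, against NUL (left) and against LAC (right), with stages in colour; filled points passed an adjusted p of 0.05 and open points did not. Against NUL the Lpl points lay between 1.0 and 3.02, and against LAC the Lpl and Mttp points lay below 0 and the Lipc points above 0.

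Lpl (ENSMUSG00000015568; GRCm38 chromosome 8, 68880491 to 68907448, plus strand) was higher in the lactating liver than at any other stage, and every later liver lay above the nulliparous range. The 4 NUL livers had 7.54, 12.0, 19.1 and 21.8 CPM, and the 3 LAC livers 102, 102 and 163 CPM. The lowest LAC liver thus exceeded the highest NUL liver by a wide margin. Mean levels were 15.1 ± 6.52 CPM in NUL (SD, n = 4) and 122 ± 34.9 CPM in LAC (SD, n = 3), an 8.1-fold difference (log2 fold change 3.02 ± 0.31 SE, edgeR adjusted p = 6.52e-06). Leaving out each library in turn kept the log2 fold change between 2.76 and 3.25, with an adjusted p of 5.32e-05 or less.

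After weaning Lpl fell at once but only part of the way. The 3 ID2 livers had 27.7, 33.0 and 41.9 CPM, all below every LAC liver and all above every NUL liver. ID2 was 3.57-fold lower than LAC (log2 fold change -1.84 ± 0.33 SE, edgeR adjusted p = 0.000914). It was 2.27-fold higher than NUL (log2 fold change 1.18 ± 0.30 SE, edgeR adjusted p = 0.0353). That call was lost in 5 of 7 fits that left out a library, in each of the 3 that left out an ID2 animal and in those without NUL_220 or NUL_221, with log2 fold changes from 0.96 to 1.42. The highest ID2 value came from ID2_31, the library with pancreas and Glycam1 RNA and with 13.7 CPM of adipocyte markers against at most 9.88 CPM in NUL, and without it the log2 fold change was 1.01 (edgeR adjusted p = 0.153). In ID2 against NUL, 4 of 10 genes of the day arm of the circadian clock were higher and 2 of 6 of the night arm lower, beside 3.24% of all genes called; with a clock term in the model the Lpl log2 fold change was 0.74 (edgeR adjusted p = 0.457), and the hour of sampling was not given in the sources used here.

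The later involution livers stayed in the same band or above it. ID4 had 31.9, 33.1, 41.8 and 56.2 CPM, the 2 higher values coming from the 2 animals numbered under 200, one of which, ID4_15, also had the 138 CPM of pancreas markers. ID6 ran from 48.3 through a median of 53.9 to 70.5 CPM (n = 6), above all ID2 and NUL livers and above 3 of the 4 ID4 livers. Both stages exceeded NUL, by 2.7-fold at ID4 (log2 fold change 1.43 ± 0.29 SE, edgeR adjusted p = 0.00547) and 3.75-fold at ID6 (1.91 ± 0.28 SE, edgeR adjusted p = 0.000669). The ID4 call was lost when ID4 and NUL were fitted alone (log2 fold change 1.44, edgeR adjusted p = 0.0924). The difference from ID4 to ID6 itself did not pass (log2 fold change 0.47 ± 0.26 SE, edgeR adjusted p = 0.286), nor did that from ID2 to ID6 (0.72 ± 0.29 SE, edgeR adjusted p = 0.0981), which passed when ID2 and ID6 were fitted alone (edgeR adjusted p = 0.0053) and in none of the other alternatives run (adjusted p from 0.0552 to 0.313). Against LAC, ID6 was 2.16-fold lower (-1.11 ± 0.27 SE, edgeR adjusted p = 0.00607), a call lost without LAC_240, which had the 163 CPM (adjusted p = 0.0729), and in limma on log2(TPM + 0.1) (-0.93, adjusted p = 0.0679).

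At the end of the series Lpl was still above every nulliparous liver, without passing the test. ID8 had 27.4, 37.2 and 46.7 CPM, and REG had 22.3, 23.4, 35.0 and 40.0 CPM, against a NUL maximum of 21.8 CPM. The log2 fold change over NUL was 1.3 ± 0.30 SE at ID8 (edgeR adjusted p = 0.0581) and 1.0 ± 0.29 SE at REG (edgeR adjusted p = 0.278). DESeq2 called the ID8 difference (adjusted p = 0.00457), as did edgeR with a filter at 1 CPM in 3 libraries (adjusted p = 0.0448). Number range and stage cannot be told apart in ID8. In the order of stage means, LAC, ID6, ID4, ID8, ID2, REG, NUL, the only neighbours that passed the test were LAC and ID6. REG and NUL, at the lower end, did not overlap, and the other neighbours did.

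Lpl is also a gene of adipocytes and macrophages, so markers of both were set beside it. The summed level of 10 adipocyte markers was 6.46 to 9.31 CPM in LAC and 7.95 to 9.88 CPM in NUL, and Adig was at 0 in all NUL and LAC libraries and Lep in all LAC libraries. Most of that sum was Pparg, with a mean of 7.47 CPM in LAC and 8.37 CPM in NUL. In ID2 the sum ran from 8.27 to 13.7 CPM and in ID6 from 7.04 to 18.8 CPM, with mean Cfd at 1.6 and 2.65 CPM against 0.381 CPM in NUL. The median log2 fold change of the 7 adipocyte markers that could be tested was -0.16 in LAC against NUL, 1.91 in ID2 against NUL and 2.27 in ID6 against NUL, from genes mostly under 1 CPM. In each of these comparisons edgeR and DESeq2 called 0 of the 7, with 1, 0 and 3 of them under an unadjusted p of 0.05 in edgeR. Their part in the Lpl level of ID2 and ID6 was not tested. The 10 markers of macrophages and Kupffer cells summed to 431 to 541 CPM in NUL and 292 to 411 CPM in LAC, and 6 of 10 were lower in LAC, beside 11.2% of all genes called in either direction. That list thus moved against Lpl in lactation. At ID4 and ID6 it was higher than in NUL, as Lpl was. Its sum was 710 to 779 CPM in ID4 and 580 to 888 CPM in ID6. Of 10 markers 8 and 5 were higher than in NUL, beside 4.25% and 1.08% of all genes called. At ID2, ID8 and REG edgeR called 0 of 10 against NUL, beside 3.24%, 0.499% and 0.0852% of all genes. The sums there were 397 to 491, 492 to 610 and 453 to 565 CPM. In ID2 against LAC 6 of 10 were higher, beside 16.1% of all genes called, while Lpl was lower. The part of this list in the Lpl level of these stages was not tested. The 10 endothelial markers summed to 308 to 350 CPM in NUL and 249 to 290 CPM in LAC, 2 of 10 lower, beside the same 11.2%. Muscle markers summed to at most 9.02 CPM in any liver.

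**Figure D3:**
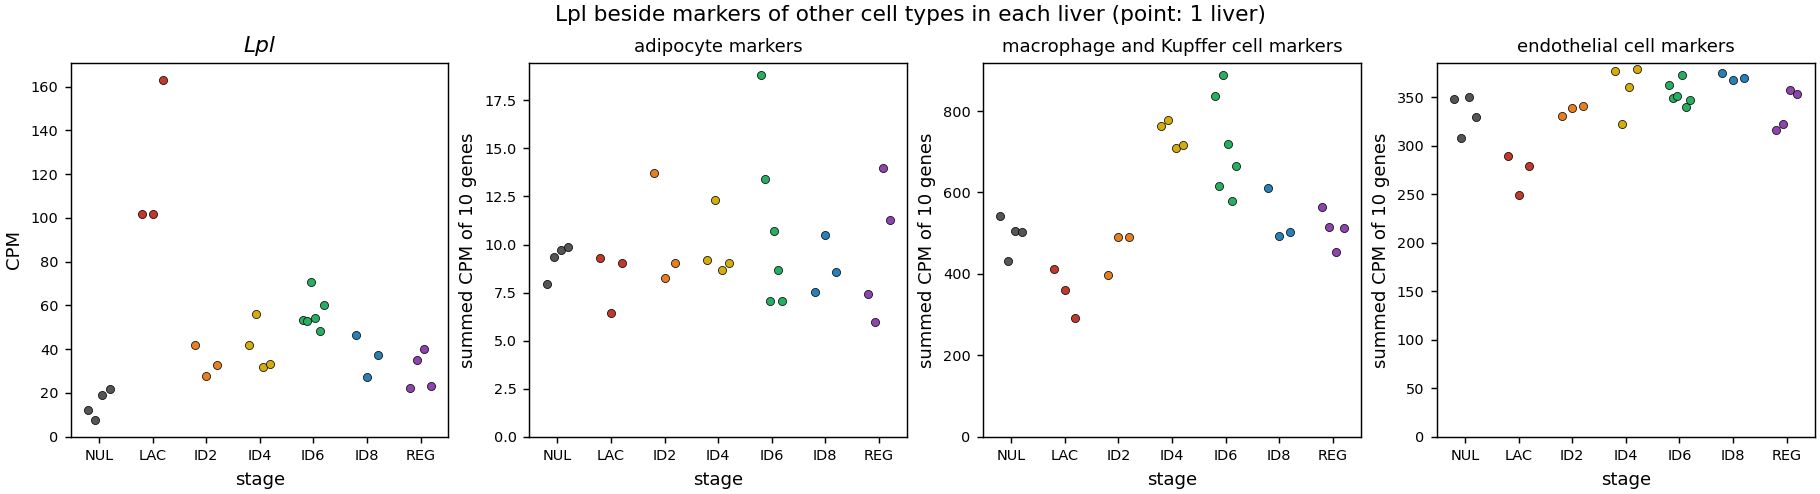
Lpl in CPM and the summed CPM of 10 adipocyte, 10 macrophage and Kupffer cell, and 10 endothelial markers in each liver by stage, on axes that start at 0; each point is 1 animal. In LAC, Lpl stood at 102 to 163 CPM while the macrophage list, at 292 to 411 CPM, was below its NUL range of 431 to 541 CPM.

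Lipc (ENSMUSG00000032207; GRCm38 chromosome 9, 70798128 to 70952226, minus strand), the lipase secreted by hepatocytes that acts on remnants and high density lipoprotein, followed an order of its own, lowest in lactation and highest at ID4. RefSeq gives 2 start windows for it on GRCm38.p6, and the 250 bases before the start of the second are shown because Lipc changed over the cycle and this window holds 3 matches to CCAAT, in capitals (as ATTGG where the match lies on the other strand). The stretch is chr9:70952222-70952471, minus strand, read 5′ to 3′ with the gene.
Lipc: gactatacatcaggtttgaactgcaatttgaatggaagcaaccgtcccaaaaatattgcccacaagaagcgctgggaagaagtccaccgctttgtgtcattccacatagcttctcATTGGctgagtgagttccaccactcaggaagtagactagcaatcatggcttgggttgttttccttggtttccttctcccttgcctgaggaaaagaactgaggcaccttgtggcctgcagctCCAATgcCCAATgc
CCAAT, searched on both strands, occurs in 37.4% of 32851 RefSeq promoter windows of 300 bases, so a match is common and is a description only.

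The 3 LAC livers had 208.9, 213.1 and 213.7 CPM of Lipc, and the 4 NUL livers 225.6, 257.6, 258.9 and 276.9 CPM. All LAC livers were below all NUL livers, by a margin that did not pass (212 ± 2.61 CPM in LAC, SD, n = 3, against 255 ± 21.3 CPM in NUL, SD, n = 4; log2 fold change -0.27 ± 0.10 SE, edgeR adjusted p = 0.1). From there Lipc rose within days of weaning. The ID2 livers had 253, 275 and 328 CPM and the ID4 livers 332, 342, 357 and 408 CPM, so that every ID4 liver exceeded every NUL, LAC and ID2 liver. ID2 was 1.35-fold above LAC (log2 fold change 0.43 ± 0.11 SE, edgeR adjusted p = 0.0088), a call lost without ID2_224 (adjusted p = 0.0799). ID4 was 1.7-fold above LAC (0.76 ± 0.11 SE, edgeR adjusted p = 5.8e-06) and 1.41-fold above NUL (0.50 ± 0.10 SE, edgeR adjusted p = 0.00207).

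Lipc then settled at a level above that of lactation. ID6 ran from 261 through a median of 292 to 345 CPM, ID8 had 293, 313 and 338 CPM, and REG 282, 312, 326 and 330 CPM. All of these exceeded every LAC liver, and the ID8 and REG livers also exceeded every NUL liver. Against LAC the log2 fold changes were 0.48 ± 0.10 SE at ID6, 0.57 ± 0.11 SE at ID8 and 0.56 ± 0.10 SE at REG (edgeR adjusted p = 0.000814, 0.00121 and 0.000552). Against NUL the values at ID8 and REG, 0.31 ± 0.10 SE and 0.30 ± 0.10 SE, did not pass (edgeR adjusted p = 0.194 and 0.337). The fall from ID4 to ID6 (-0.29 ± 0.09 SE, edgeR adjusted p = 0.0359) was called although the groups overlap, and was lost in 6 of 10 fits that left out a library, with an adjusted p of up to 0.161 without ID4_215. On the log2(TPM + 1) scale of limma it was -0.15 (adjusted p = 0.307). In the order of stage means, ID4, ID8, REG, ID6, ID2, NUL, LAC, no 2 neighbours differed beyond the threshold. Lipc overlaps 3 other annotated genes, 2 of them on the opposite strand, and use of strand in counting was not stated.

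Per length, the balance between the 2 lipases was shifted in lactation. Values in TPM are scaled for transcript length and library total, which allows genes to be compared. Lipc TPM averaged 345 ± 29.0 in NUL (SD, n = 4) and 276 ± 14.8 in LAC (SD, n = 3), while Lpl TPM averaged 6.07 ± 3.25 and 49.5 ± 20.1 in the same livers. The ratio of Lipc to Lpl TPM ran from 33.8 to 124 in the NUL livers and from 4.01 to 7.14 in the LAC livers. It was 22.7 to 31.2 in ID2, 20.9 to 44.1 in ID4, 11.5 to 19.9 in ID6, 18.4 to 41.9 in ID8 and 27.8 to 50.2 in REG. Thus Lipc remained the more abundant lipase transcript in every liver, and the LAC ratios lay below those of every other stage without overlap. The ratio was not tested.

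**Figure D4:**
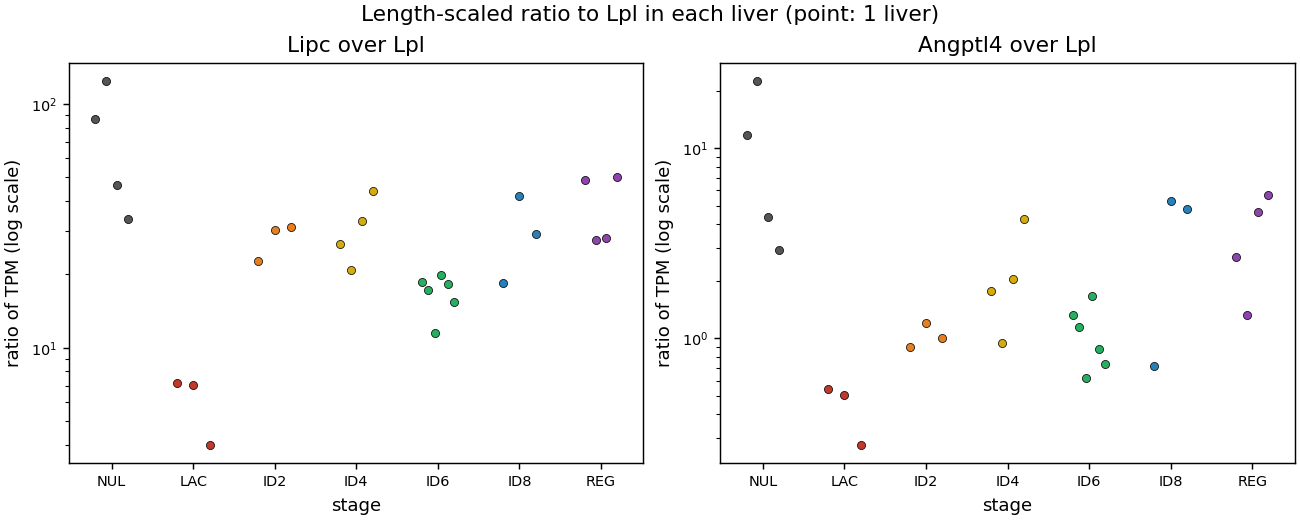
Ratio of Lipc TPM to Lpl TPM (left) and of Angptl4 TPM to Lpl TPM (right) in each liver by stage, on log axes; each point is 1 animal. Both ratios were lowest in LAC, at 4.01 to 7.14 and 0.277 to 0.543, and highest at their maximum in NUL, at 124 and 22.5.

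Lmf1 (ENSMUSG00000002279; GRCm38 chromosome 17, 25579085 to 25662826, plus strand), the membrane protein of the endoplasmic reticulum needed for active lipases, had overlapping levels at all stages next to each other in rank. The 4 NUL livers had 30.7, 31, 33.7 and 35.5 CPM and the 3 LAC livers 34.5, 35.4 and 35.4 CPM. Stage means ran from 32.7 ± 2.29 CPM in NUL (SD, n = 4) to 37.9 ± 3.88 CPM in ID4 (SD, n = 4). The log2 fold change of LAC over NUL was 0.10 ± 0.10 SE (edgeR adjusted p = 0.591), beside 3.02 for Lpl in the same livers. The widest difference from NUL was that of ID4, 0.21 ± 0.09 SE (edgeR adjusted p = 0.202). None of the 21 pairwise comparisons called Lmf1 in edgeR, and limma on log2(TPM + 1) called it higher in ID6 than in ID2 (0.22, adjusted p = 0.0401).

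Angptl4 (ENSMUSG00000002289; GRCm38 chromosome 17, 33773750 to 33781830, minus strand), the inhibitor that unfolds lipoprotein lipase and is a PPAR target, was low and even in LAC and ID2 and widely spread elsewhere. The LAC livers had 31.6, 32.7 and 35.9 CPM and the ID2 livers 22.4, 23.1 and 25.6 CPM. The NUL livers had 43.2, 50.5, 83.7 and 87.1 CPM, so that no LAC or ID2 liver reached the NUL range. The log2 fold change was -0.99 ± 0.48 SE for LAC (edgeR adjusted p = 0.219) and -1.48 ± 0.49 SE for ID2 (edgeR adjusted p = 0.109). DESeq2 called the ID2 value (adjusted p = 0.0221), as did edgeR with these 2 groups alone in the fit (adjusted p = 0.046).

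From ID4 onward Angptl4 varied widely among animals of the same stage. ID4 had 34.6, 42.2, 48.0 and 81.2 CPM, and ID6 ran from 27.8 through a median of 35.2 to 58.6 CPM. The ID8 livers had 25.0, 89.7 and 104 CPM, and the REG livers 30.8, 32.7, 81.7 and 120 CPM. The highest liver was 4.17 times the lowest in ID8 and 3.9 times in REG, against 1.14 times in both LAC and ID2. Both of the late stages held animals at or below the LAC range beside animals above the NUL maximum of 87.1 CPM. All REG livers exceeded all ID2 livers, 2.8-fold in the mean (log2 fold change 1.48 ± 0.49 SE, edgeR adjusted p = 0.112; DESeq2 adjusted p = 0.0262). ID8 overlapped ID2 and was 3.07-fold higher in the mean (1.62 ± 0.51 SE, edgeR adjusted p = 0.178; DESeq2 adjusted p = 0.042). Against LAC, ID8 stood at 1.13 ± 0.51 SE (edgeR adjusted p = 0.154), which passed without ID8_14 (1.52, adjusted p = 0.0477) and with a clock term (1.44, adjusted p = 0.0457). In the joint test the edgeR adjusted p of 0.0833 became 0.0202 without ID8_14, the liver at 25.0 CPM, 0.0497 without REG_203 and 0.0456 without REG_214, and DESeq2 gave 0.0102. The ratio of Angptl4 to Lpl TPM ran from 2.93 to 22.5 in NUL, from 0.277 to 0.543 in LAC and from 0.907 to 1.21 in ID2. It ran from 0.943 to 4.26 in ID4, from 0.621 to 1.67 in ID6, from 0.713 to 5.31 in ID8 and from 1.33 to 5.68 in REG, so that the lowest ID6 and ID8 livers lay below the ID2 range.

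Angptl8 (ENSMUSG00000047822; GRCm38 chromosome 9, 21835510 to 21837347, plus strand), a secreted inhibitor of lipoprotein lipase that is induced by insulin and feeding, had the widest spread within a stage. The LAC livers had 81.8, 92.7 and 213.2 CPM and the NUL livers 49.3, 56.1, 89.8 and 114 CPM. The groups overlapped, and the difference did not pass (log2 fold change 0.74 ± 0.50 SE, edgeR adjusted p = 0.404). ID2 had 62.3, 76.6 and 78.0 CPM, ID4 39.3, 47.1, 50.6 and 65.6 CPM, and ID6 48.3 to 95.9 CPM with a median of 63.8. ID4, the lowest stage, was below every LAC liver (log2 fold change -1.35 ± 0.51 SE, edgeR adjusted p = 0.0596), and DESeq2 called that difference (adjusted p = 0.0337). Without LAC_213, the liver at 213.2 CPM, it was -0.78. The ID8 livers had 28.1, 70.7 and 100 CPM and the REG livers 29.1, 71.4, 77.1 and 208 CPM, a span of 7.14 times within REG.

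In 4 of the 7 animals of ID8 and REG, picked out after their values were seen, a high level of one inhibitor stood beside a low level of the other. ID8_14 had 25.0 CPM of Angptl4, the lowest of its stage, and 100 CPM of Angptl8, the highest. ID8_101b had 104 and 28.1 CPM, the reverse. In REG, REG_234 had the highest Angptl4 at 120 CPM and the lowest Angptl8 at 29.1 CPM, while REG_203 had the highest Angptl8 at 208 CPM with Angptl4 at 32.7 CPM. The other 3 animals did not follow this: REG_239 was next to highest of its stage in both (81.7 and 77.1 CPM), REG_214 had the lowest Angptl4 of its stage at 30.8 CPM with 71.4 CPM of Angptl8, and ID8_98b had 89.7 and 70.7 CPM. Angptl8 lies within Dock6, a gene on the opposite strand, and reads from both cannot be told apart without strand.

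Vldlr (ENSMUSG00000024924; GRCm38 chromosome 19, 27216484 to 27254231, plus strand), a receptor known to be scarce in adult liver, was the least abundant of the 7, with 99 to 428 counts per library. NUL had 1.83, 2.19, 2.94 and 5.31 CPM, LAC 2.19, 3.42 and 3.60 CPM, and REG 3.10, 3.23, 4.20 and 5.72 CPM. Stage means stayed between 3.0 ± 0.645 CPM in ID4 (SD, n = 4) and 4.06 ± 1.21 CPM in REG (SD, n = 4), and neighbouring stages overlapped throughout. LAC over NUL was -0.00 ± 0.39 SE on the log2 scale (edgeR adjusted p = 1.0). Its effective length in the tables varied from 1792 to 7709 bases between libraries, so that its TPM, with stage means from 0.74 to 1.21, carries that variation as well.

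The start regions of Angptl8 and Vldlr share a short match that is rare among promoters. Of the 7 genes 5 matched the RefSeq table of promoter windows (Lipc, Lmf1, Angptl8, Vldlr and Mttp). Among 10 motifs searched, TGATGCAA, the type bound by the stress factor ATF4, occurs in 0.895% of 32851 windows, on either strand, and in the window of Angptl8 and the second of 2 windows of Vldlr. The first window of Vldlr holds no match to any of the 10 motifs. The 40 bases around it are shown, 5′ to 3′ with the gene and the match in capitals, from chr9:21835364-21835403 (plus strand) and from chr19:27216804-27216843 (plus strand, the match reading as its reverse complement).
Angptl8: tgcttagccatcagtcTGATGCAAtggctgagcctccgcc
Vldlr: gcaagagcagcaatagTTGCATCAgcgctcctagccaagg
Atf4 mRNA itself was 81.4 ± 12.2 CPM in NUL (SD, n = 4) and 102 ± 14.1 CPM in LAC (SD, n = 3), and was lower in ID2 than in LAC (log2 fold change -0.74 ± 0.16 SE, edgeR adjusted p = 0.00259). Neither Angptl8 nor Vldlr passed the test in that comparison. The pair of repeats of AGGTCA typical of nuclear receptors (DR1 and DR4), the E-box CACGTG and the TATA box TATAAA had no match in any window of the 5 genes, which says only that these letters are not in these windows.

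Mttp (ENSMUSG00000028158; GRCm38 chromosome 3, 138089854 to 138144968, minus strand), which lipidates apolipoprotein B, rose in lactation and fell below the nulliparous level 2 days after weaning. The 250 bases before its RefSeq start on GRCm38.p6, chr3:138143419-138143668, minus strand, are given because Mttp and Lipc moved in opposite directions between LAC and every later stage. They hold no CCAAT and no GC box (GGGCGG, searched on both strands), so no letter is in capitals. The whole window of 300 bases holds 1 GC box, which begins at base 275, past the stretch shown, as do 35.7% of 32851 windows at any place.
Mttp: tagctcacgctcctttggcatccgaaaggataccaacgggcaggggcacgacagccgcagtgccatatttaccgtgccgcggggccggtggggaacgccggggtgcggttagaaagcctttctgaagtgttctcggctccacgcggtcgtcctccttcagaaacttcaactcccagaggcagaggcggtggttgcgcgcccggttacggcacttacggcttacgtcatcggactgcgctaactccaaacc
The LAC livers had 350, 353 and 387 CPM of Mttp and the NUL livers 262, 271, 284 and 334 CPM. All LAC livers were above all NUL livers, by 1.26-fold in the mean (363 ± 20.6 CPM, SD, n = 3, against 288 ± 31.9 CPM, SD, n = 4; log2 fold change 0.34 ± 0.08 SE, edgeR adjusted p = 0.00813). That call was lost without LAC_213 (adjusted p = 0.0635) and in limma on log2(TPM + 1) (adjusted p = 0.081).

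The ID2 livers had 220.7, 228.0 and 228.3 CPM of Mttp, the lowest 3 of all 27. They were 1.61-fold below LAC (log2 fold change -0.69 ± 0.09 SE, edgeR adjusted p = 1.2e-05) and 1.28-fold below NUL (-0.35 ± 0.08 SE, edgeR adjusted p = 0.0174). The first of these held in all 6 fits that left out a library. The second was lost in 4 of 7, without NUL_227 or any ID2 animal, and with a clock term in the model (adjusted p = 0.243).

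Mttp was higher again at ID8 and REG. ID4 had 241, 254, 260 and 284 CPM, ID6 ran from 241 through a median of 254 to 282 CPM, ID8 had 289, 306 and 310 CPM, and REG 277, 290, 296 and 302 CPM. ID4 and ID6 overlapped NUL, and ID8 and REG lay within the NUL range. Against ID2 the rise was 1.34-fold at ID8 (log2 fold change 0.42 ± 0.09 SE, edgeR adjusted p = 0.0239) and 1.29-fold at REG (0.37 ± 0.08 SE, edgeR adjusted p = 0.0162). The ID8 call was lost in 5 of 6 fits that left out a library, and the REG call in 1 of 7, without ID2_39 (adjusted p = 0.111). Against LAC the log2 fold change was -0.49 ± 0.08 SE at ID4, -0.49 ± 0.08 SE at ID6, -0.27 ± 0.09 SE at ID8 and -0.32 ± 0.08 SE at REG (edgeR adjusted p = 9.51e-05, 3.22e-05, 0.0455 and 0.0107). The ID8 value was lost in all 6 fits that left out a library and in 10 other alternatives, among them upper quartile scaling (-0.22, adjusted p = 0.0872). The REG value was lost without LAC_213 (adjusted p = 0.0813) and in limma on log2(TPM + 1) (-0.20, adjusted p = 0.128) and log2(TPM + 0.1) (-0.21, adjusted p = 0.126). In the order LAC, ID8, REG, NUL, ID4, ID6, ID2, the only neighbours that passed were LAC and ID8. Mttp overlaps an antisense gene and Trmt10a on the other strand.

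The partners of lipoprotein lipase outside the 7 moved in both directions in lactation. Of 8 further genes of lipase maturation, transport and inhibition, 2 rose and 2 fell in LAC against NUL (11.2% of all genes called), with a median log2 fold change of 0.14 beside -0.01 over all genes tested. Gpihbp1, which carries lipoprotein lipase across capillary endothelium, fell from 21 ± 3.06 CPM in NUL (SD, n = 4) to 14.3 ± 1.20 CPM in LAC (SD, n = 3; log2 fold change -0.55 ± 0.14 SE, edgeR adjusted p = 0.00844), in livers where 2 of 10 endothelial markers fell too.

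Among 10 tested genes of the lipase and angiopoietin-like families, 1 rose and 3 fell in LAC against NUL, beside the same 11.2%. Angptl7 was lower by -0.93 ± 0.29 SE and Angptl6, with fractional counts in all 27 libraries, by -0.42 ± 0.12 SE on the log2 scale (edgeR adjusted p = 0.0393 and 0.0196). Endothelial lipase, Lipg, was lowest at ID4, with 3.25 ± 1.27 CPM (SD, n = 4) against 10.2 ± 2.19 CPM in NUL (SD, n = 4; log2 fold change -1.64 ± 0.28 SE, edgeR adjusted p = 0.00115), and was lower than NUL at ID6 too (-1.44 ± 0.25 SE, edgeR adjusted p = 0.00274). Lpl was above NUL at both stages. The list includes 3 pancreatic lipases, whose levels are not described because of the pancreas RNA in ID2_31.

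Of 13 tested lipoprotein receptors and uptake factors other than Vldlr, 3 rose and 2 fell in LAC against NUL, again beside 11.2%. The fatty acid carrier Cd36 rose from 35.0 ± 9.73 CPM to 84.4 ± 12.9 CPM (SD, n = 4 and 3; log2 fold change 1.27 ± 0.20 SE, edgeR adjusted p = 0.000232). Lsr, the lipolysis-stimulated receptor, rose as well (0.82 ± 0.11 SE, edgeR adjusted p = 2.82e-05), and Lrpap1, a chaperone of the receptor family, by 0.50 ± 0.11 SE (edgeR adjusted p = 0.00292). Mylip, which marks receptors of the family for breakdown, was lower (-0.54 ± 0.14 SE, edgeR adjusted p = 0.0116). Counts of Lsr were fractional in all 27 libraries, which means that some of its reads were shared between genes. At ID4 6 of 13 were called against NUL (edgeR, 4.25% of all genes), 2 of them lower and 4 higher, and the higher ones were Cd36, Scarb1, Lsr and Sdc1, by 0.44 to 0.93 on the log2 scale.

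Of 21 partners of Mttp in VLDL assembly, 1 rose and 1 fell in LAC against NUL (11.2% of all genes called), with a median log2 fold change of 0.06 beside -0.01 over all genes. The riser was Mia3, a cargo receptor for large particles (0.31 ± 0.10 SE, edgeR adjusted p = 0.0455), and the carboxylesterase Ces3a was lower (-1.24 ± 0.27 SE, edgeR adjusted p = 0.00444), with fractional counts in 26 libraries. In ID2 against NUL 3 fell and 0 rose (3.24% of all genes called), namely Ces3a, Ces1d and Vmp1 (-1.25 ± 0.27 SE, -0.62 ± 0.15 SE and -0.41 ± 0.11 SE, edgeR adjusted p = 0.0112, 0.0211 and 0.0343). In ID2 against LAC 5 fell, namely Ces1d, Mia3, Sar1b, Tmem41b and Vmp1, and 1 rose, Cideb (edgeR, 16.1% of all genes called), with a median of -0.01 beside 0.02 over all genes; Mttp was lower in both of these comparisons.

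Targets and regulators shared with the 7 were counted as lists, beside 11.2% of all genes called in LAC against NUL, 3.24% in ID2 against NUL and 16.1% in ID2 against LAC. Of 17 lipogenic targets of insulin, LXR and SREBP1c, 10 rose and 0 fell in LAC against NUL (median log2 fold change 1.36), and 10 fell and 0 rose in ID2 against LAC (median -1.52). Pnpla3 rose by 3.19 ± 0.86 SE, the fatty acid elongase Elovl6 by 2.12 ± 0.56 SE, the desaturase Scd1 by 2.10 ± 0.41 SE and fatty acid synthase, Fasn, by 2.10 ± 0.52 SE on the log2 scale in LAC against NUL (edgeR adjusted p = 0.0191, 0.0169, 0.00211 and 0.012), Scd1 with fractional counts in 16 libraries. Of 21 PPAR alpha targets other than Angptl4, 3 rose and 5 fell in LAC against NUL, and 4 fell and 0 rose in ID2 against NUL (median -0.26). The 4 lower at ID2 were Acot1, Pdk4, Fabp1 and Acaa1b (-2.65 ± 0.52 SE, -1.26 ± 0.31 SE, -0.97 ± 0.16 SE and -0.66 ± 0.18 SE, edgeR adjusted p = 0.00634, 0.0271, 0.000549 and 0.0429), Acot1 and Acaa1b with fractional counts in 26 libraries. Angptl4, not called, stood at -1.48 in the same comparison. Of 24 transcription regulators, 3 fell and 0 rose in LAC against NUL, among them the glucocorticoid receptor Nr3c1 (-0.32 ± 0.10 SE, edgeR adjusted p = 0.0359) and the coactivator Ppargc1b (-0.87 ± 0.28 SE, edgeR adjusted p = 0.0462).

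The genes whose levels followed each of the 7 most closely were sought among the genes called in the joint test that had a mean of 2 CPM or more, by Pearson's r of log2(CPM + 1) over the 27 libraries, as a description. Lipc had the closest match, Atraid (r = 0.922), followed by Cdo1, cysteine dioxygenase (0.887), and Eif4b, a translation initiation factor (0.859). Lpl was followed by Ugt1a9 (0.795), Gdpd1 (0.777) and Slco2a1 (0.773), of which Ugt1a9 shares reads with other genes of its locus and had fractional counts in all 27 libraries. Mttp was followed by Ncoa4 (0.815), the receptor for ferritin breakdown, then Mrpl38 (0.797) and Ftl1-ps1 (0.778), with fractional counts of Ncoa4 and Ftl1-ps1 in all 27 libraries. Angptl4 was nearest to Fpgs (0.777), Pxmp4 (0.734) and Rarres1 (0.713), and Lmf1 to Proc (0.741), Rpl10-ps3 (0.698) and Ddrgk1 (0.696). Angptl8 and Vldlr had no close match: the highest r was 0.663 (Hes6, then Nudcd1 at 0.662 and Tmem41b at 0.660) and 0.594 (Xpo1, then Adssl1 at 0.543 and Tmem63a at 0.539). The points of these correlations share libraries, depth and stage, so r carries no test.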

How the data were processed

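RNA from 27 whole livers was sequenced as bulk libraries, 16 of them in 2 runs and 11 in 1. The authors used STAR 2.6.1a and RSEM 1.3.1 with builds mm10 and GRCm38, per the submitters' processing notes; trimming, strand and annotation release are not given in the sources used here. The deposited expected counts, per the file headers, are RSEM's estimates of reads per gene and are not normalised; they were rounded here. The deposited TPM, per the file headers, are scaled for effective length and library total by the authors. The deposited FPKM values, per the file headers, were not used for results. Symbols and positions came from GENCODE mouse release 21 by identifier (51633 of 51826 matched), and promoter windows from RefSeq on GRCm38.p6.

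Counts were analysed in R 4.3.3 with edgeR 4.0.16 (filterByExpr, TMM, robust quasi-likelihood fit of all 27 libraries in 7 groups, 21 pairwise contrasts and 1 joint test, two-sided). Each SE was derived from the log2 fold change and the F of its test. The threshold was 0.05 after Benjamini-Hochberg adjustment over 16428 genes. Alternatives used limma 3.58.1 on log2(TPM + 1) and log2(TPM + 0.1), DESeq2 1.42.0, other scalings and filters, covariates, 2 groups only, and each library left out. The fitting script was tested on simulated counts. Groups came from sample titles; no number recurs between groups, so animals were not paired. P-values measure the spread between animals.

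Libraries held 41120650 to 75664540 counts; their number sets the precision of a count, and intervals from molecules were not used because the libraries carry no molecular identifiers. The 7 genes and all lists were chosen with earlier results of these data known. From a list, genes called in the joint test were named by size of change, up to 4 rising and 4 falling in a comparison, and the 3 highest r per gene in the search for like patterns. The search for like patterns took genes called in the joint test, with a mean of 2 CPM or more and without provisional symbols. The lists were further genes of lipase maturation (8), lipase and angiopoietin-like families (12), receptors (14), VLDL assembly (21), regulators (24), PPAR alpha targets (21), lipogenic targets (17), clock arms (10 and 6) and markers of 8 cell types, of which 10 hepatocyte, 10 stellate, 10 muscle and 10 pancreas acinar genes. Some genes of these lists are not reported here.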

Additional observations from a re-analysis of the deposited data

How the results depend on the processing

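Over 147 values of a gene in a comparison and 3192 alternative values, 2900 kept direction and side of the threshold, 75 lost the call, 24 gained one, and none of the called values changed sign. The other 193 changed sign without being called in either fit. For the joint test, Lpl, Lipc and Mttp stayed called in all alternatives run, with adjusted p from 6.32e-06 to 0.000122, 5.48e-05 to 0.000669 and 1.17e-05 to 0.00043 when each library was left out. Angptl4 passed with a clock term (adjusted p = 0.0490, edgeR) and in DESeq2 (0.0102), and ran from 0.0202 to 0.164 when each library was left out.

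Of the 7 genes, LAC against NUL called 1 when fitted on those 2 groups alone and on both limma scales, and 1 to 2 with a library left out. ID2 against NUL called 0 at an adjusted p under 0.01, with number range as a covariate and with a clock term, 1 (Mttp) without a filter on low counts, with an effective length offset and on both limma scales, 1 with 2 groups, and 0 to 2 with a library left out. With 2 groups that 1 was Angptl4, and both Lpl (adjusted p = 0.189, edgeR) and Mttp (0.0811) were lost. ID4 against NUL called 1 with 2 groups, where Lpl was lost (adjusted p = 0.0924, edgeR). ID8 against NUL called 1 with a filter at 1 CPM in 3 libraries and in DESeq2. ID4 against ID2 called 1 in DESeq2 and 0 to 1 with a library left out. ID6 against ID4 called 0 at an adjusted p under 0.01, without a filter, with an effective length offset, with 2 groups and on both limma scales, and 0 to 1 with a library left out. ID8 against ID6 called 1 in DESeq2. ID2 against LAC called 2 to 3 with a library left out. Mttp was lost in ID8 against LAC in 10 alternatives besides those that left out a library, and in REG against LAC on both limma scales. Mttp was also lost in ID8 against ID2 with a clock term, with 2 groups and on both limma scales (adjusted p from 0.056 to 0.0837), and in REG against ID2 with number range as a covariate (0.123) and with a clock term (0.107). Lpl was lost in ID6 against LAC on 1 limma scale. Calls gained included Lpl lower in REG than ID6 with a clock term, with 2 groups and in DESeq2 (0.0461, 0.0326 and 0.0184), Mttp higher in ID6 than ID2 on both limma scales (0.012 and 0.0123), Angptl4 lower in ID2 than LAC with 2 groups (0.00553), and Angptl8 lower in ID4 than LAC with a filter at 1 CPM, with number of runs as a covariate and with a clock term (0.0488, 0.0187 and 0.0327). Fits with fewer samples or another set of tested genes change the adjustment by construction. For the covariates, the limma scales and DESeq2 the cause was not tested. On log2(TPM + 1) limma's median log2 fold change over all tested genes was 0.067 in ID6 against ID2, with 73.7% of its calls higher. In ID6 against ID4 these values were 0.074 and 82.2%. In edgeR the medians were 0.022 and 0.014, with 1051 of 2361 and 639 of 1401 calls higher. No paired analysis was possible because no replicate number is shared between groups. Limits: groups of 3 or 4 animals gave SEs near 0.5 for both inhibitors on the log2 scale and Vldlr rests on 99 to 428 counts per library.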

Other observations

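Within stages, the 21 pairs of the 7 genes were compared over 27 animals after subtracting stage means, with 100000 permutations within stage. The comparison was chosen after the values were seen. Angptl4 and Angptl8 had Pearson's r = -0.562 (permutation p = 0.05, adjusted 0.483) and Spearman's rho = -0.418 (permutation p = 0.0837, adjusted 0.434). Without the 2 animals farthest from the median in Angptl4, whatever their Angptl8, r was -0.392. By animal number r was -0.518 from 200 up and -0.715 under 200, and it was -0.467 with 1 run and -0.482 with 2 runs. Lipc and Angptl4 had r = 0.49 (permutation p = 0.0085, adjusted 0.179) and rho = 0.478 (permutation p = 0.0189, adjusted 0.397). Without the 2 animals farthest from the median in Lipc, whatever their Angptl4, r was 0.544. For this pair r was 0.509 and 0.481 by number range, and 0.742 and 0.382 by number of runs. None of the 21 pairs passed the adjustment.

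Markers of stellate cells, a store of retinoids and a source of matrix, were lower in lactation: 6 of 10 fell in LAC against NUL, beside 11.2% of all genes called in either direction, with a summed level of 306 to 334 CPM against 401 to 534 CPM (edgeR). In the 3 LAC livers the 10 hepatocyte markers summed to 191000 to 237000 CPM, against 103000 to 132000 CPM in NUL, with 2 of 10 higher (Alb and Serpina1a) and 1 lower (Cyp2e1). Most of that difference was Alb, with means of 177000 and 89800 CPM, and the list's median log2 fold change was 0.14.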
